A study of Danio rerio with 3 samples.

Results

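The genes described here are 8 markers of zebrafish neutrophils and macrophages: mpx, lyz, npsn, mpeg1, ncf1, cyba, lcp1 and coro1a. They were chosen by name, with earlier results of these data known. All 8 were found in the table, and they stand among 19814 named mRNA entries, of which 17865 had at least 10 normalized counts in a library. Their levels were compared between 3 libraries made from whole larvae of the Tuebingen strain at 6 dpf. These were larvae kept in 0.1% DMSO (the vehicle, which the exposed larvae also received), larvae exposed to BDE47 at 5 μg/L (the low dose), and larvae exposed to BDE47 at 500 μg/L (the high dose). Exposure began at 3 to 4 hpf, and approximately 60 larvae were pooled for a treatment. The compound BDE47 (2,2′,4,4′-tetrabromodiphenyl ether) is a brominated flame retardant found in wildlife and in human tissue, and the comparison asks how its presence through early development altered the larval transcriptome.

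Neutrophils and macrophages are the phagocytes of the innate immune system, and in a zebrafish larva of this age they carry out most of the cellular immune response, since lymphocytes are still maturing. Neutrophils store enzymes in granules, and both cell types can assemble the phagocyte NADPH oxidase on their membranes, which makes superoxide in the respiratory burst. Moving and engulfing depend on an actin cytoskeleton that is arranged in part by proteins largely restricted to leukocytes.

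Each condition had 1 library, so no difference has a replicate check and no p-value is given. A normalized count is the number of reads on a gene after the TMM scaling of the authors, and 1 read corresponded to 0.790 of them in the vehicle library, 1.09 at the low dose and 1.25 at the high dose. The libraries held 34156825, 25125399 and 22186369 reads on named mRNA entries, respectively. A fold change (FC) is the ratio of normalized counts between 2 libraries. The range in parentheses after an FC is its exact Clopper-Pearson 95% interval, which covers counting error only and not the spread between larvae, pools or library preparations. An entry was called at an FC of at least 2 or at most 0.5 where either library of the pair held 10 normalized counts or more. In RNA from whole larvae, fewer cells of a type and less RNA per cell cannot be told apart.

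At 5 μg/L all 8 genes were below their level in DMSO vehicle, with FCs between 0.549 for lcp1 and 0.982 for npsn, whose interval included 1. Of all entries with at least 10 normalized counts, 48.8% were below DMSO vehicle at this dose. At the high dose they spread in both directions, from 0.542 for lcp1 to 1.99 for cyba. Between the exposed libraries, mpx and cyba were more than 2 times as high at 500 μg/L as at 5 μg/L. The neutrophil peroxidase mpx had the largest swing, and among the 8, lcp1 alone was at nearly the same low level at both doses.

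**Figure D1:**
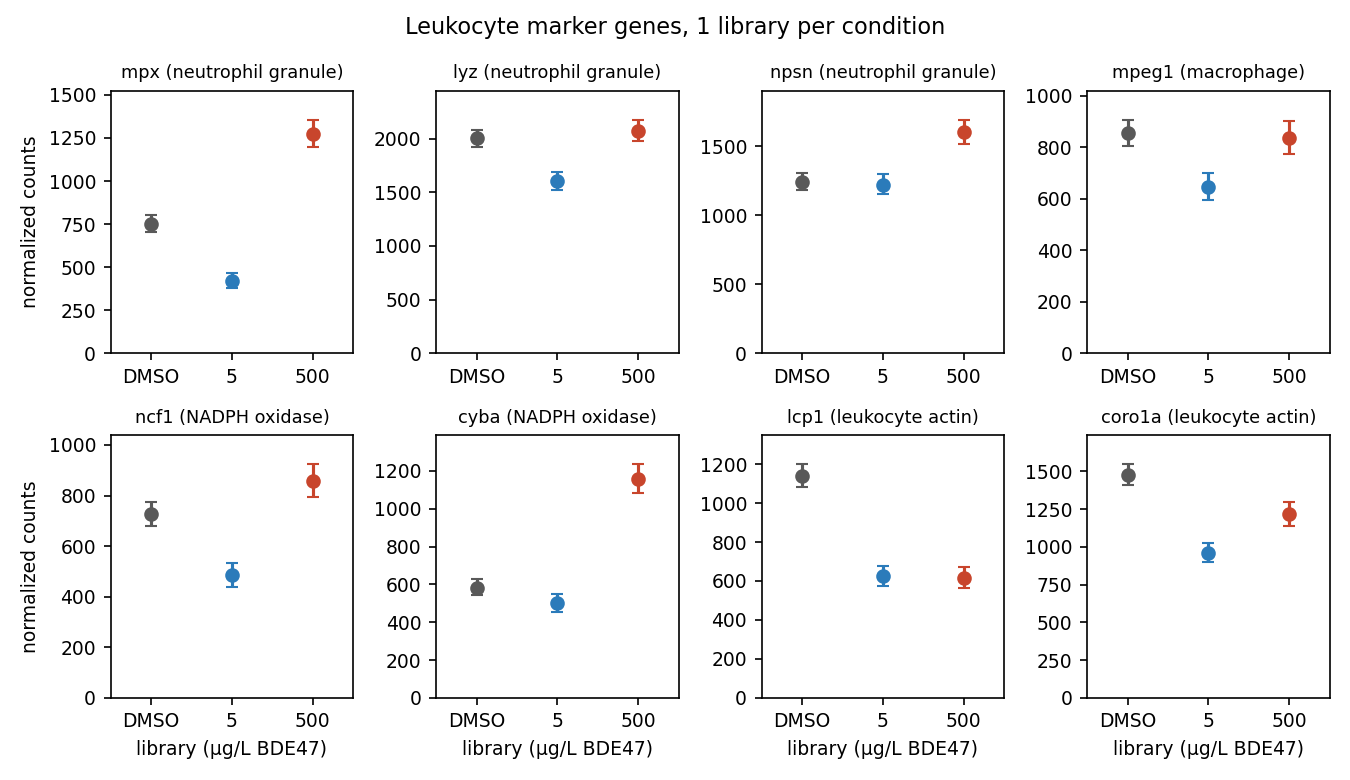
Normalized counts (y axis, from 0) of the 8 marker genes in the vehicle library and the libraries of both BDE47 doses (x axis, in μg/L), 1 library per condition. Bars are exact Poisson 95% intervals of the reads and cover counting error only. For mpx the library at 5 μg/L is the lowest (421) and that at 500 μg/L the highest (1275), whereas for lcp1 the exposed libraries lie close together (625 and 617).

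Of the neutrophil granule genes, mpx encodes myeloperoxidase, the heme enzyme that turns hydrogen peroxide into hypochlorous acid. It had 753 normalized counts in DMSO vehicle, 421 at the low dose and 1275 at the high dose, from 953, 385 and 1021 reads. The 3 levels were separated beyond counting error, with 5 μg/L lowest and 500 μg/L highest. The FC was 0.559 (0.495 to 0.630) at 5 μg/L and 1.69 (1.55 to 1.85) at 500 μg/L. Set directly against 5 μg/L, the level at 500 μg/L was 3.03 times as high (2.69 to 3.42).

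The lysozyme gene lyz, whose product breaks down bacterial cell walls and which marks larval neutrophils, had 2001 normalized counts in DMSO vehicle, 1600 at the low dose and 2074 at the high dose. Its level was lowest at 5 μg/L, and the other two libraries were not separated by counting error. The FC was 0.800 (0.749 to 0.853) at 5 μg/L and 1.04 (0.973 to 1.10) at 500 μg/L.

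The gene npsn encodes nephrosin, an astacin metalloproteinase of fish granulocytes. It had 1246 normalized counts in DMSO vehicle, 1223 at the low dose and 1604 at the high dose. Here DMSO vehicle and 5 μg/L were not separated (FC of 0.982, 0.909 to 1.06), and 500 μg/L stood above both, at 1.29 (1.20 to 1.39) against DMSO vehicle and 1.31 (1.21 to 1.42) against 5 μg/L. Of the 3 granule genes, mpx and npsn were thus above DMSO vehicle at the high dose beyond counting error, and mpx and lyz below it at the low dose. The ratio of npsn to lyz reads within a library was 0.622 (0.584 to 0.663) in DMSO vehicle, 0.764 (0.706 to 0.827) at the low dose and 0.773 (0.719 to 0.832) at the high dose. Such a ratio does not depend on scaling between libraries, and that of mpx to lyz was 0.376 (0.349 to 0.406) in DMSO vehicle, 0.263 (0.234 to 0.294) at the low dose and 0.615 (0.568 to 0.665) at 500 μg/L. The ratio of mpx to npsn was 0.605, 0.344 and 0.795 in the same order. So mpx was low relative to both other granule genes at 5 μg/L and high relative to both at 500 μg/L. These and the other ratios below were chosen after the values were seen.

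Several entries share their human match with npsn, and reads of close copies could be split between them, since how such reads were counted is not given in the sources used here. Of these, c6ast3 and c6ast4 are astacin proteases with 2318, 2515 and 1101 normalized counts (c6ast3) and 27179, 31021 and 17860 normalized counts (c6ast4) in the vehicle, low dose and high dose libraries, the order used for values given without a library from here on. Unlike npsn, both were lowest at 500 μg/L, with FCs of 0.475 (0.440 to 0.512) and 0.657 (0.644 to 0.670). Among the other npsn matches, LOC100003133 had 144, 175 and 103 reads. It was at 1.68 (1.34 to 2.11) at 5 μg/L and 1.13 (0.869 to 1.47) at 500 μg/L. LOC564183, with 53, 40 and 18 reads, was at 1.04 (0.675 to 1.60) and 0.537 (0.296 to 0.931). The remaining matches, LOC797085 and c6ast1, held at most 5 reads in a library.

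The macrophage gene of the set, mpeg1, encodes perforin-2, a pore-forming protein of phagocytes whose promoter is widely used to label zebrafish macrophages. It had 855 normalized counts in DMSO vehicle, 646 at the low dose and 838 at the high dose. Its level was lowest at 5 μg/L (FC of 0.755, 0.682 to 0.836), and the high dose was within counting error of DMSO vehicle (0.980, 0.889 to 1.08). As for lyz, the low dose alone was separated from DMSO vehicle. The ratio of lyz to mpeg1 reads was 2.34 (2.18 to 2.52) in DMSO vehicle, 2.48 (2.25 to 2.73) at the low dose and 2.47 (2.26 to 2.71) at 500 μg/L, and these intervals overlap. The ratio of mpx to mpeg1, by contrast, was 0.881 (0.806 to 0.962), 0.651 (0.571 to 0.742) and 1.52 (1.38 to 1.68). Relative to the macrophage gene, lyz was thus within counting error in all 3 libraries, and mpx was lowest at 5 μg/L and highest at 500 μg/L. Both other entries with the human match of mpeg1, LOC795504 and LOC795715, held at most 8 reads in a library.

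**Figure D2:**
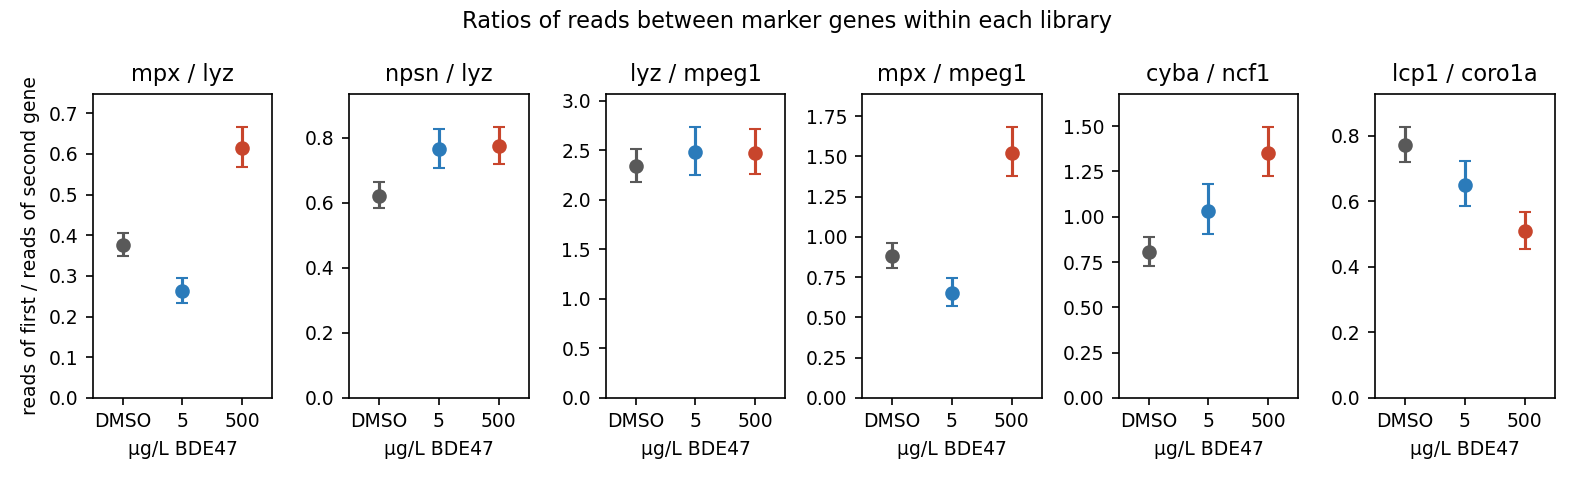
Ratio of the reads of 2 marker genes within the same library (y axis, from 0) in the vehicle library and at both BDE47 doses (x axis, in μg/L), with exact 95% counting intervals. The ratio of lyz to mpeg1 stays between 2.34 and 2.48, whereas that of mpx to mpeg1 goes from 0.881 to 0.651 and 1.52.

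The NADPH oxidase genes of the set encode p47phox (ncf1), the cytosolic organizer that carries the other cytosolic subunits to the membrane, and p22phox (cyba), the membrane partner that stabilizes the catalytic subunit. The level of ncf1 was 726 normalized counts in DMSO vehicle, 484 at the low dose and 857 at the high dose. It was lowest at 5 μg/L and highest at 500 μg/L, and the 3 levels were separated beyond counting error, at FCs of 0.667 (0.595 to 0.748) and 1.18 (1.07 to 1.31). Against 5 μg/L, the level at 500 μg/L was 1.77 times as high (1.57 to 2.00).

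The level of cyba was 583 normalized counts in DMSO vehicle, 500 (499.6) at the low dose and 1158 at 500 μg/L. At 5 μg/L it was slightly lower than in DMSO vehicle (FC of 0.856, 0.760 to 0.964). At 500 μg/L it was 1.99 times as high (1.80 to 2.19), just short of the FC of 2 needed for a call, and against 5 μg/L it passed that threshold (2.32, 2.07 to 2.60). The ratio of cyba to ncf1 reads was 0.804 (0.729 to 0.887) in DMSO vehicle, 1.03 (0.903 to 1.18) at the low dose and 1.35 (1.22 to 1.49) at 500 μg/L. In vertebrates the p22phox protein also serves oxidases outside phagocytes, among them Nox1.

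Of the rest of the phagocyte complex, 3 genes are described here. The catalytic subunit gp91phox (cybb) had 474, 175 and 503 normalized counts. At the low dose it was lower than ncf1 and cyba relative to DMSO vehicle, with an FC of 0.369 (0.308 to 0.440), which is a call, and the high dose was within counting error of DMSO vehicle (1.06, 0.933 to 1.21). By contrast, rac2, the small GTPase that switches the complex on, was at 0.986 (0.911 to 1.07) at 5 μg/L and 1.40 (1.294 to 1.503) at 500 μg/L, and the intervals of ncf4 (p40phox) included 1 at both doses (0.919 and 1.06). The described genes of the complex therefore did not share a common FC at either dose, and the ratio of cyba to cybb reads was 1.23 (1.10 to 1.37), 2.86 (2.38 to 3.44) and 2.30 (2.04 to 2.59).

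Other NADPH oxidase genes, which serve epithelia and other cells, were represented by 5 of 11 listed. At the high dose noxo1b, the organizer of Nox1, had an FC of 2.74 (2.37 to 3.18), nox1 itself 2.62 (1.85 to 3.76) and noxa1, its activator, 2.26 (1.46 to 3.54). At 5 μg/L the same 3 genes were at 0.616 (0.498 to 0.760), 0.496 (0.277 to 0.851) and 0.785 (0.437 to 1.38). The gene nox5, a calcium-regulated oxidase named after its values were seen, was called higher at 5 μg/L, at 2.07 (1.01 to 4.41), from 11.1 to 23.0 normalized counts, and its interval included 1 at 500 μg/L (1.35, 0.572 to 3.16). The dual oxidase gene duox was instead lower at both doses, at 0.692 (0.486 to 0.974) and 0.426 (0.270 to 0.651). Of the 5 genes, 3 were called higher and duox lower at 500 μg/L, against 7.4% and 4.74% of the entries tested. At 5 μg/L nox5 was called higher and nox1 lower, against 0.951% and 1.97% of the entries tested. The call of nox1 rested on 53 reads in DMSO vehicle and 19 at 5 μg/L. The part that these epithelial oxidases have in the level of cyba was not tested. A further entry with the human match of cybb, LOC100538315, had 90.1, 80.9 and 275 normalized counts and an FC at 500 μg/L of 3.05 (2.42 to 3.86).

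**Figure D3:**
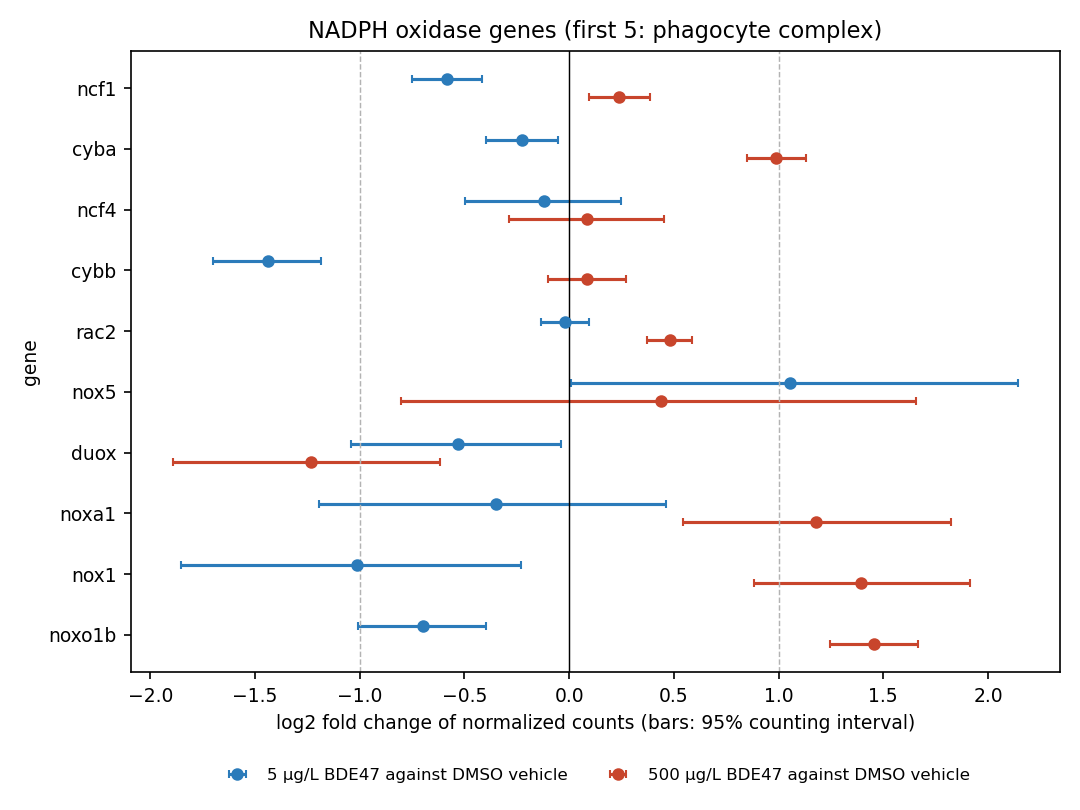
Log2 FC of NADPH oxidase genes against DMSO vehicle (x axis) at 5 μg/L (blue) and 500 μg/L (red), with exact 95% counting intervals, the first 5 genes from the top being of the phagocyte complex. The dashed lines mark FCs of 0.5 and 2. Among the first 5, cybb lies farthest left at 5 μg/L (0.369) and cyba farthest right at 500 μg/L (1.99), and nox1, noxa1 and noxo1b lie to the right of the line of 2 at 500 μg/L.

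The cytoskeletal genes of the set mark leukocytes of all kinds: lcp1 encodes L-plastin, which bundles actin filaments, and coro1a encodes coronin-1A, which regulates branched actin at the leading edge and around phagosomes. The level of lcp1 was 1139 normalized counts in DMSO vehicle, 625 at the low dose and 617 at the high dose. Both exposed libraries were below DMSO vehicle, with FCs of 0.549 (0.497 to 0.605) and 0.542 (0.488 to 0.601), and they did not differ from each other beyond counting error (0.987, 0.873 to 1.12). Both FCs share the vehicle library.

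An unnamed locus with the human match of lcp1, LOC100536318, followed it. It had 243 normalized counts in DMSO vehicle, 119 at the low dose and 116 at the high dose, from 308, 109 and 93 reads. Its FCs were 0.489 (0.390 to 0.611) and 0.477 (0.374 to 0.604), so it was called at both doses. Whether reads were divided between these 2 entries was not tested.

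The level of coro1a was 1479 normalized counts in DMSO vehicle, 962 at the low dose and 1215 at the high dose. All 3 levels were separated beyond counting error, with 5 μg/L lowest, at FCs of 0.651 (0.600 to 0.705) and 0.822 (0.760 to 0.889). In contrast to lcp1 it was 1.26 times as high at 500 μg/L as at 5 μg/L (1.15 to 1.39). The ratio of lcp1 to coro1a reads was 0.770 (0.719 to 0.825) in DMSO vehicle, 0.650 (0.584 to 0.723) at the low dose and 0.508 (0.455 to 0.566) at 500 μg/L.

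**Figure D4:**
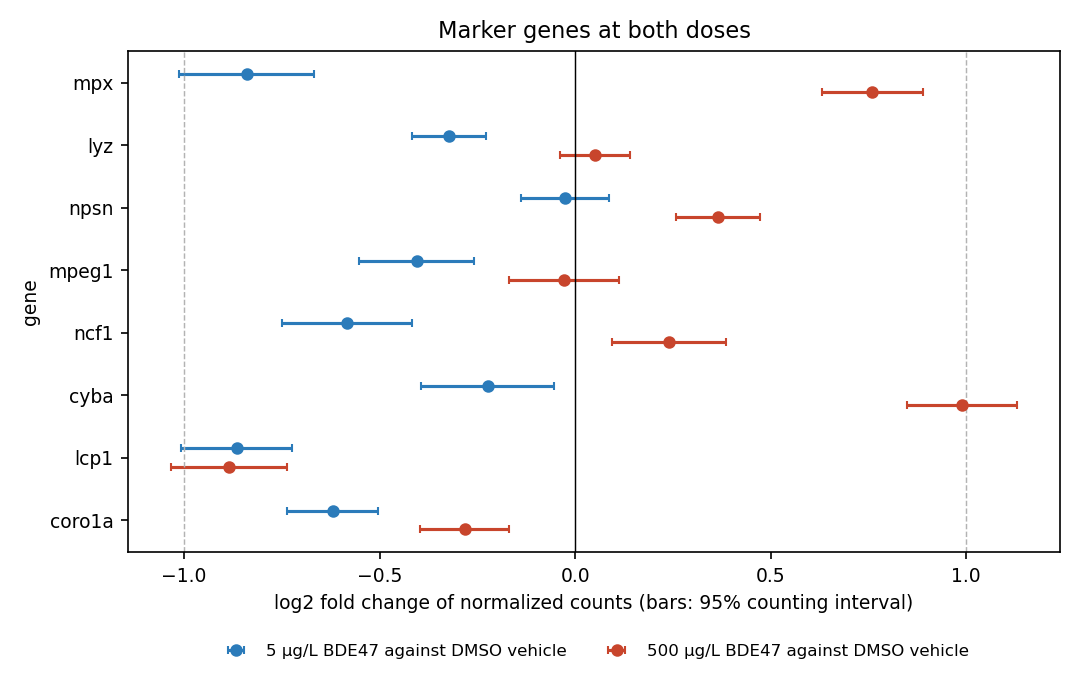
Log2 FC of the 8 marker genes against DMSO vehicle (x axis) at 5 μg/L (blue) and 500 μg/L (red), with exact 95% counting intervals and dashed lines at FCs of 0.5 and 2. All 8 points at 5 μg/L lie left of 0, from 0.549 to 0.982 as FC, and at 500 μg/L the points run from 0.542 (lcp1) to 1.99 (cyba).

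Counted over the 8 genes, none was called at 5 μg/L, where 0.951% of the entries tested were called higher and 1.97% lower. At an FC of 1.5, mpx, lcp1 and coro1a were lower, 3 of 8, against 5.8% of the entries tested, and ncf1 lay just outside. The interval lay below 1 for 7 of 8, against 17.8% of the entries tested, many of which had fewer reads and so wider intervals. The median log2 FC was -0.49 for the 8 genes and 0.01 for all entries with at least 10 normalized counts. Among entries with at least 100 normalized counts, 0.677% had a lower FC at 5 μg/L than lcp1, 0.722% a lower FC than mpx, 1.93% than coro1a and 2.41% than ncf1. For npsn this share was 42.3%, near the middle. The 8 genes were chosen with earlier results of these data known, so these counts and those below are not separate evidence.

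At 500 μg/L none of the 8 was called, where 7.4% of the entries tested were called higher and 4.74% lower. At an FC of 1.5, mpx and cyba were higher (2 of 8, against 17.0% of the entries tested) and lcp1 lower (1 of 8, against 14.9%). The interval lay above 1 for 4 genes (mpx, npsn, ncf1 and cyba; 31.0% of the entries tested) and below 1 for lcp1 and coro1a (30.6% of the entries tested). With 8 genes, these counts were not tested against those of the whole table. The median log2 FC was 0.15, beside -0.02 for all entries. Among entries with at least 100 normalized counts, 93.1% had a lower FC at 500 μg/L than cyba, 88.9% than mpx and 4.64% than lcp1.

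Between the exposed libraries, 2 of 8 were called higher at 500 μg/L than at 5 μg/L, mpx and cyba, against 7.39% of the entries tested. At an FC of 1.5 there were 3 of 8, with ncf1 added, against 16.8%, and the interval lay above 1 for 7 of 8, against 29.5%. Only lcp1 had an interval that included 1. The median log2 FC was 0.38 for the 8 genes and -0.01 for all entries. This comparison shares its libraries with those above and is not separate evidence.

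The other neutrophil genes, of which 18 of 25 listed were measured (at least 10 normalized counts in a library), had a median log2 FC of -0.32 at 5 μg/L and 1.15 at 500 μg/L. Against 1.97% of the entries tested called lower and 0.951% called higher at 5 μg/L, 3 of 18 were called lower and none higher. These were lect2l, a chemotaxin-like gene (0.261, 0.239 to 0.284), alox5ap, which supports leukotriene synthesis (0.474, 0.288 to 0.755), and illr4, named after its values were seen, which rested on 16, 1 and 9 reads. The G-CSF receptor gene csf3r was at 0.502 (0.372 to 0.671), just short of a call, and cxcr4b, a chemokine receptor that retains neutrophils, was at 1.24 (1.09 to 1.40). At the high dose 10 of 18 were called higher and none lower, against 7.4% and 4.74% of the entries tested. This list and those of other cell types below were chosen with earlier results of these data known, so their counts are not separate evidence. The largest were the collagenase gene mmp13a at 26.6 (22.6 to 31.5), the metalloproteinase inhibitor gene timp2b at 14.5 (12.98 to 16.3) and the gelatinase gene mmp9 at 11.6 (10.6 to 12.7).

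Several of these are known from other cells as well. Without mmp9, mmp13a, timp2b, il8, cebpb and cebpd the median at 500 μg/L was 0.81. Of the 12 genes kept, 4 were called higher (abcb9, srgn, adam8a and cxcr4b), against 7.4% of the entries tested. This subset was chosen after the values were seen, and whether the genes kept are also active in other cells was not tested. The lower neighbours at 500 μg/L included csf3r at 1.01 (0.789 to 1.28), lta4h, the leukotriene A4 hydrolase gene, at 0.961 (0.908 to 1.02) and alox5ap at 0.909 (0.607 to 1.35).

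The other macrophage genes, of which 17 of 32 listed were measured, had a median log2 FC of -0.15 at 5 μg/L and 0.57 at 500 μg/L. Whether the genes of this list are also active in other cells was not tested. At 5 μg/L 3 were called lower, mfap4, a macrophage marker in zebrafish (0.320, 0.273 to 0.374), the granulin gene grna (0.438, 0.362 to 0.528) and the complement gene c1qa (0.441, 0.260 to 0.722), and none higher. Of the entries tested, 1.97% were called lower and 0.951% higher at this dose. Other granulin and C1q genes, named after their values were seen, had intervals that included 1 at this dose. They were c1qb (1.04), c1qc (0.922), grn1 (0.943), grn2 (0.893) and grnb (1.05). The largest FCs at this dose were those of acp5a (1.27) and mrc1a (1.08), whose intervals also included 1. At 500 μg/L the chemerin receptor gene cmklr1 (3.25, 2.80 to 3.78) and acp5a (2.95, 2.29 to 3.81), the acid phosphatase also known from osteoclasts, were called higher and none lower. That was 2 of 17 higher, near the 7.4% of the entries tested called higher, where 4.74% were called lower. At an FC of 1.5, 7 of 17 were higher and 1 lower, against 17.0% and 14.9% of the entries tested. The interval lay above 1 for 11 and below 1 for 2, against 31.0% and 30.6%. The apolipoprotein gene apoeb was at 1.93 (1.91 to 1.96). The galectin-binding protein gene lgals3bpb was at 0.594 (0.514 to 0.684). The macrophage growth factor receptor gene csf1ra, chosen after the values were seen, was at 0.901 (0.813 to 0.999) and 1.40 (1.27 to 1.54), and the ratio of mpeg1 to csf1ra reads was 1.16 (1.06 to 1.26), 0.969 (0.864 to 1.09) and 0.810 (0.731 to 0.898). Relative to this receptor, mpeg1 was lower at 500 μg/L than in DMSO vehicle, and the interval at 5 μg/L overlapped both others.

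Genes shared by most leukocytes, of which 21 of 41 listed were measured, had a median log2 FC of -0.38 at 5 μg/L and 0.07 at 500 μg/L. At 5 μg/L 18 of 21 were below 1, against 48.8% of all entries with at least 10 normalized counts. The interval lay below 1 for 13, against 17.8% of the entries tested. Among the 13 were plek (pleckstrin) at 0.526 (0.409 to 0.671), wasb, a regulator of actin branching, at 0.593 (0.467 to 0.748) and inpp5d, the SHIP1 phosphatase gene, at 0.663 (0.541 to 0.808). The interval lay above 1 for 2, samsn1a (1.17, 1.11 to 1.23) and tyrobp, against 3795 of the 17670 entries tested. The adaptor gene tyrobp was the only one called at 5 μg/L, at 2.20 (1.26 to 3.94), from 17.4 to 38.3 normalized counts. It was named after its values were seen. Of the entries tested, 0.951% were called higher and 1.97% lower at this dose. At the high dose none was called, where 7.4% of the entries tested were called higher and 4.74% lower. There spi1, which encodes the myeloid transcription factor PU.1, was at 1.63 (1.35 to 1.96) and ptprc, which encodes CD45, at 1.35 (1.14 to 1.60), whereas dock2, which activates Rac in migrating leukocytes, was at 0.583 (0.425 to 0.790). Unlike at 5 μg/L, samsn1a was below DMSO vehicle at this dose, at 0.648 (0.609 to 0.690). In this list 11 of 21 were above 1 at 500 μg/L, near the 49.0% of all entries with at least 10 normalized counts.

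**Figure D5:**
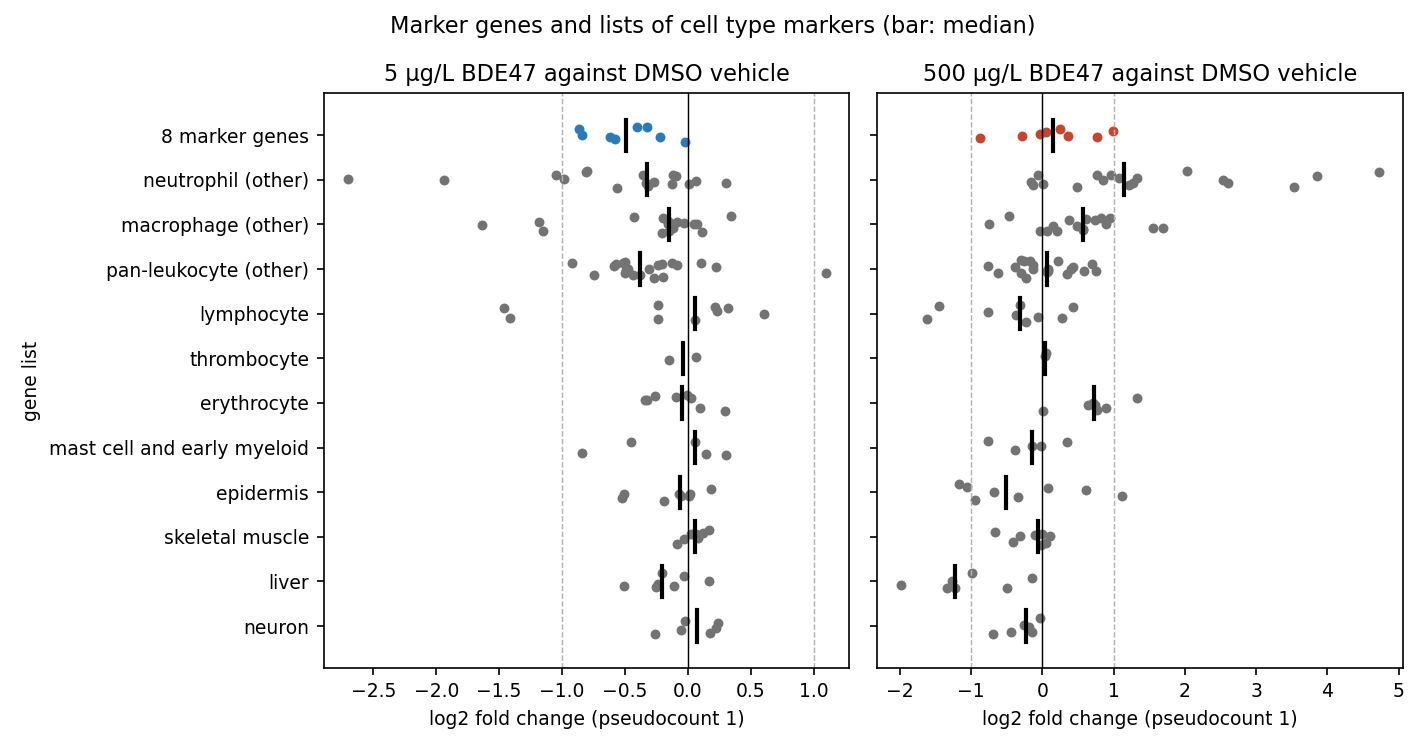
Log2 FC with a pseudocount of 1 (x axis) of the 8 marker genes (coloured) and of the measured genes of 11 lists of cell type markers (grey) at the low (left) and the high dose (right) of BDE47 against DMSO vehicle, with each list's median as a black bar and dashed lines at -1 and 1. The medians of the 8 marker genes are -0.49 and 0.15, those of the other neutrophil genes -0.32 and 1.15, and that of the liver genes at 500 μg/L is -1.23.

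Markers of other cell types differed between the libraries too. The 7 measured liver genes of 9 listed were below DMSO vehicle at 500 μg/L in 7 of 7 cases, with 4 called lower and a median log2 FC of -1.23, and their summed level was 276017, 241761 and 127561 normalized counts. The 8 epidermal genes summed to 608665, 573864 and 352180, with 2 called lower (krt4 and krt5) and 1 called higher (epcam) at 500 μg/L. At that dose 4.74% of the entries tested were called lower and 7.4% higher. The 8 measured erythrocyte genes of 16 listed had a median log2 FC of -0.05 at 5 μg/L and 0.72 at the high dose. All 12 listed erythrocyte genes with an entry, measured or not, summed to 17614, 17393 and 30474 normalized counts. Among the 12, the globin gene ba1 was at 0 in the 3 libraries. At 5 μg/L none of the liver, epidermal, muscle, neuron or erythrocyte genes was called, where 0.951% of the entries tested were called higher and 1.97% lower. Uncalled does not mean unchanged. The interval lay below 1 for 5 of 8 epidermal and 5 of 7 liver genes, and above 1 for 2 and 1. For the 8 muscle genes it lay above 1 for 6 and below 1 for 2. The part of the makeup of the larvae in the levels of the 8 marker genes was not tested.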

How the data were processed

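Polyadenylated RNA of pooled larvae was sequenced as paired reads, with 1 library for each of 3 conditions. Per the paper's methods the authors mapped the reads to Zv9 and hg19. Counting software, gene annotation and use of strand are not given in the sources used here. The deposited signal of an entry is its read count after TMM normalization by the authors, in 1 table. Columns of the authors' own comparisons were not used. All values (100%) were whole multiples of what 1 read is worth, within 0.01 of a read, so reads were recovered by division. Entries other than mRNA and 10 mRNA entries named only by a clone prefix were left out. The blank control was not analysed here.

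FCs were ratios of the deposited values, with Clopper-Pearson intervals on the shares of reads. Intervals cover counting error only, since reads had no molecular identifiers. List medians used log2 FCs with a pseudocount of 1 over entries with at least 10 normalized counts. The 8 members and the gene lists were chosen with earlier results of these data known. Named were the 8 members, entries sharing a human match with them, and from each list up to 3 genes at each end of the FCs among those with at least 50 normalized counts. One listed gene is not reported here. All 8 members matched a RefSeq entry, mpeg1 under the symbol mpeg1.1. Levels were not compared between genes, except as ratios followed across libraries, since no lengths were used. Alternatives were other scalings, count minimums, a pseudocount of 5, an FC of 1.5, Fisher's exact test on reads, and the exact test of edgeR, for which the biological coefficient of variation (BCV) was set to 0.2 or 0.4, both with Benjamini-Hochberg adjustment at 0.05. The last 2 compare libraries, not conditions. The code was tested on simulated data. Software was R 4.3.3 (edgeR 4.0.16) and Python 3.11.15 (scipy 1.17.1, numpy 2.4.6, matplotlib 3.10.9, pandas 2.3.3).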

Additional observations from a re-analysis of the deposited data

How the results depend on the processing

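The FCs of the 8 genes moved by at most 1.03 times over 120 values under other scalings, a pseudocount of 5 and other count minimums. This small movement was largely fixed in advance. A count minimum leaves an FC as it is, and the other scalings multiplied a library by factors from 0.974 to 1.002. The direction changed for 1 value, the FC of lcp1 between the exposed libraries. It was 0.987 and became 1.001 with a median log2 ratio of 0, both within counting error of 1. Leaving out a library was not possible with 1 per condition. No paired analysis was possible because each condition has 1 library. At an FC of 1.5 the calls among the 8 genes went from 0 to 3 at 5 μg/L and from 0 to 3 at 500 μg/L. Between the exposed libraries, 2 of the 8 were called, 1 (mpx) with edgeR at an assumed BCV of 0.2 and 0 at 0.4. Over all entries, 516 were called at 5 μg/L, against 287 with a pseudocount of 5, 1622 with no minimum, 126 with a minimum of 50, 1648 at an FC of 1.5, 361 with Fisher's exact test, and 5 and 0 with edgeR at a BCV of 0.2 and 0.4. At 500 μg/L 2155 were called, against 5659 at an FC of 1.5 and 687 and 19 with edgeR. Between the exposed libraries 2035 were called, against 3123 with no minimum, 5249 at an FC of 1.5 and 592 and 29 with edgeR. Without mmp9, mmp13a, timp2b, il8, cebpb and cebpd, a choice made after seeing the data, the median log2 FC of the other neutrophil genes at 500 μg/L was 0.81 in place of 1.15. The depth limits the intervals, and the spread between pools of larvae was not measured.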

Other observations

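Markers of other blood lineages were also listed. Of the lymphocyte genes, 9 of 19 listed were measured, with a median log2 FC of 0.06 at 5 μg/L and -0.32 at the high dose. The recombinase genes of developing lymphocytes had 391, 454 and 230 (229.9) normalized counts (rag1) and 63.2, 53.6 and 22.5 normalized counts (rag2) in the vehicle, low dose and high dose libraries, which gave FCs at 500 μg/L of 0.588 (0.493 to 0.697) and 0.356 (0.201 to 0.598). The interleukin receptor gene il7r was at 1.53 (1.13 to 2.09) at 5 μg/L. At each dose 2 of the 9 were called lower, and none was called higher. They were cd247 and zap70 at 5 μg/L and zap70 and rag2 at 500 μg/L, of which cd247 and zap70 had under 50 normalized counts in each library and are named after their values were seen. Of the entries tested, 1.97% were called lower and 0.951% higher at 5 μg/L, and 4.74% lower and 7.4% higher at 500 μg/L. The thrombocyte genes itga2b and gp1bb had intervals that included 1 at both doses. Of the mast cell and early myeloid genes, 5 of 7 listed were measured and none was called at either dose, and the lowest at 500 μg/L was cpa5, a carboxypeptidase gene, at 0.586 (0.579 to 0.593). The human match of cpa5 was CPA1, and it had 79264, 87539 and 46459 normalized counts. Which cells this RNA came from was not tested, so the FC cannot be read as one of mast cells.

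Entries close to each marker gene in both FCs were counted. Among 13054 mRNA entries with at least 100 normalized counts in DMSO vehicle, 3 lay within 0.1 of mpx over its pair of log2 FCs, 5 within 0.1 of lcp1, 17 of coro1a, 21 of cyba, 27 of ncf1, 90 of mpeg1, 134 of lyz and 284 of npsn. The nearest to mpx were LOC565295 (FCs of 0.569 and 1.73), the small GTPase gene rhof (0.573 and 1.65) and LOC560447 (0.590 and 1.65). The nearest to lcp1 were sox21a, a transcription factor gene (0.535 and 0.542), bub3, a spindle checkpoint gene (0.531 and 0.535) and col17a1a, a collagen gene of epithelia (0.541 and 0.559). The nearest to cyba were LOC100002369, the glutathione synthetase gene gss and il6st, the shared receptor of the interleukin 6 family (0.840 and 1.97). Likeness here rests on 3 libraries. Such a count also falls as a gene lies farther from the bulk of entries, and counting error can exceed the distance of 0.1. The counts therefore do not show that a pattern is rare.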
